A study of Mus musculus with 8 samples.

Results

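Gentle touch of hairy skin excites a class of slowly conducting sensory neurons, the C-fibre low-threshold mechanoreceptors or C-LTMRs. The account below describes their transcriptome in wild-type mice. It rests on the wild-type libraries of a count table, 4 of the 8 libraries in the series, chosen by their genotype label. The study sorted GFP-positive C-LTMRs by flow cytometry from adult mice and sequenced their polyadenylated RNA. Its groups were wild-type (Wild Type) and bhlha9 KO animals of both sexes, with 2 biological replicates for each genotype and sex, and only the Wild Type libraries, M-WT1 and M-WT2 from males and F-WT1 and F-WT2 from females, were analysed here as 1 group of 4. The gene or promoter that drives the GFP, the tissue taken for sorting, the strain and the number of animals per library could not be read from the labels, so the libraries are described as sorted GFP-positive cells of wild-type adults.

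As background, the cell bodies of C-LTMRs lie in the dorsal root ganglia, and their endings form a lattice around hair follicles. They are known for tyrosine hydroxylase, the vesicular glutamate transporter VGLUT3 (Slc17a8), the secreted protein TAFA4 (Fam19a4) and the GDNF-family co-receptor Gfra2, and for carrying the pleasant quality of touch and modulating pain. They arise within the Ret-positive, Runx1-dependent branch of small sensory neurons, beside the nonpeptidergic nociceptors, and separate from the peptidergic and the myelinated classes.

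The libraries held between 57882914 and 63055815 counts each, and pairs of libraries correlated with Pearson's r between 0.955 and 0.971 across the 16156 genes detected, on log2(CPM + 1), where genes are not independent replicates. CPM rescales counts to library sizes corrected by TMM factors, and TPM divides the counts by gene length and gives every library the same total. A gene's TPM therefore also depends on the other genes of its library, short ones included. Its ratio between libraries differs from that in CPM, by which steady genes were called. A gene was called detected with at least 10 counts in each of the 4 libraries, which 29.1% of all genes and 54.9% of protein-coding genes reached. It was called absent with at most 3 counts in each, which held for 54.1% and 30.0%. The shares of protein-coding genes are the background for every count of list or family members detected or absent. A detected gene was called steady where its highest CPM was at most 1.5 times its lowest, and the common biological coefficient of variation was 38.7%. Values in sets of 4 are given in the order M-WT1, M-WT2, F-WT1 and F-WT2, and errors are SDs over n = 4. Counts of list members highest or lowest in a library stand without the share over all genes, which was not computed. Fewer cells of a type and less RNA per cell cannot be told apart in such bulk samples.

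All 12 genes of the C-LTMR list were detected, against 54.9% of protein-coding genes, and they spanned more than 2 orders of magnitude in level. The list was chosen with earlier results of these data known, and the cells were sorted as C-LTMRs. Shares of the list set beside those of all genes are therefore descriptions and not tests. Th, tyrosine hydroxylase, the first enzyme of catecholamine synthesis, led them at 4829.9, 4581, 4317 and 3662 TPM. Th stood 7th among the protein-coding genes at a mean of 4348 ± 503 TPM. It lies at chr7:142892752-142931128 (GRCm38) and is counted over 14 exon blocks. Phf24, a PHD finger protein, followed at 785, 867, 794 and 585 TPM. Ret, the signalling receptor for GDNF-family ligands, stood at 381, 463, 331 and 317 TPM, and its neurturin co-receptor Gfra2 (chr14:70890120-70979838) at 300.1, 416, 288 and 279 TPM. Ret was above Gfra2 within each library and Gfra2 above Bhlha9, but the ranges of these neighbours overlapped across libraries.

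Bhlha9, the basic helix-loop-helix factor whose loss the study is about, lies in a single exon at chr11:76672470-76673676 on the plus strand. It stood at 295, 323, 243 and 227 TPM, from between 7930 and 10252 counts per library, and its mean of 272 ± 44.7 TPM ranked 433rd among the protein-coding genes. All of its 4 values lay above all of those of Fam19a4 (chr6:96831203-97060413), the gene of the secreted protein TAFA4, at 141, 181, 102 and 113 TPM. Kcnd3, a subunit of A-type potassium channels, had 105, 119, 131 and 97.5 TPM. Its range overlapped that of Fam19a4, which was the lower of the pair in F-WT1.

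Piezo2, the channel that gates the current of light touch receptors, was found at 103, 87.2, 79.3 and 64.5 TPM. Zfp521, a zinc finger protein, was at 64.05, 67.4, 56.3 and 45.4 TPM and Runx1, a transcription factor of this lineage, at 46.5, 45.1, 44.1 and 38.3 TPM. Neighbours from Fam19a4 down to Runx1 overlapped in their ranges, while Cacna1h and Slc17a8 below them each stood apart from the gene above. Cacna1h, a T-type calcium channel pore, had 29.9, 30.1, 29.03 and 26.8 TPM, and Slc17a8 (chr10:89574020-89621253) had 18.6, 25.1, 22.1 and 16.2 TPM. Slc17a8 was thus the lowest of the list, though still above 61.02% of the protein-coding genes detected. With the longest transcript in place of the merged exon length, Runx1 moved from 43.5 to 73.5 TPM and passed Zfp521 in the order.

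**Figure D1:**
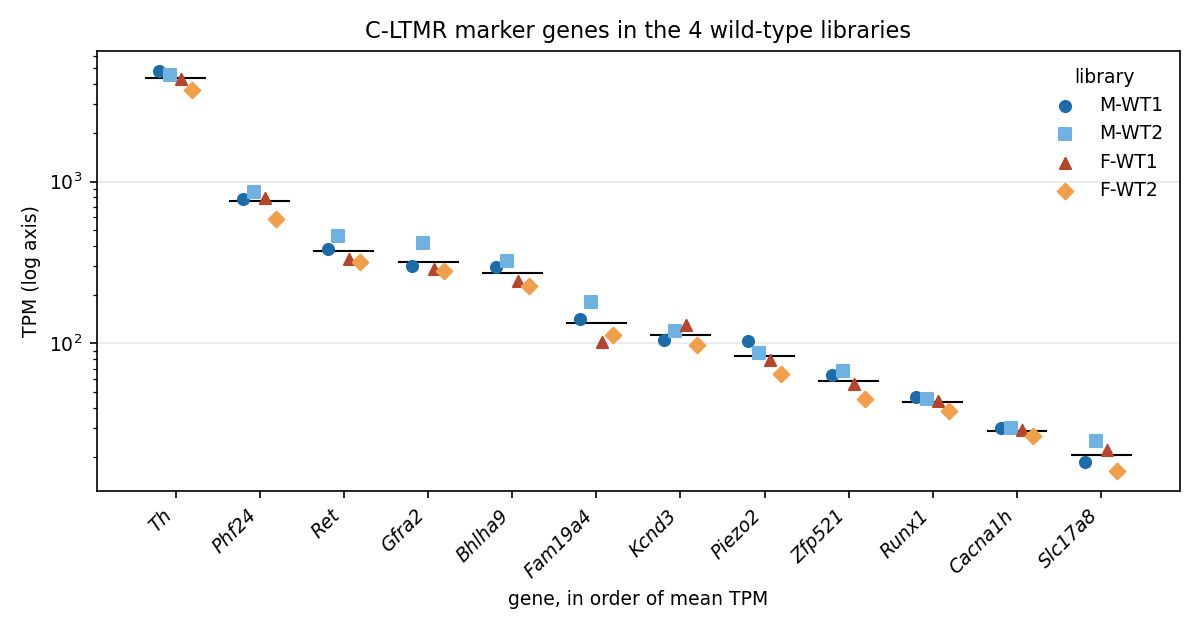
TPM on a log axis for the 12 C-LTMR genes, in order of mean, with 1 point per library and a bar at the mean of the 4. Th has a mean of 4348 TPM, far above Phf24, and the points of each gene lie close together.

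The list's summed level was 7101, 7203, 6436 and 5473 TPM, of which Th made up 66.3%. This sum was not computed in CPM, so its differences between libraries include those of the TPM scale. Of the 12 genes, 11 were steady, against 33.4% of all protein-coding genes detected and against 60.2% when the latter are weighted to the levels of the list. Fam19a4 fell just outside the 1.5-fold limit at a ratio of 1.57, Piezo2 just inside it at 1.49, and Cacna1h had the lowest ratio of the list at 1.1. In TPM, F-WT2 was the lowest library for 11 of the 12 genes and F-WT1 for Fam19a4. The median of the list's mean levels was 124 TPM, beside 12.9 TPM over all protein-coding genes detected and 1.66 TPM over all protein-coding genes. The 10 general neuronal genes were all detected and all steady, among them Prph, an intermediate filament of peripheral neurons, at 5304, 4813, 4668 and 4021 TPM, and Tubb3, a neuronal beta-tubulin, at 2101, 1893, 1753 and 1788 TPM.

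The most abundant protein-coding transcript was Sncg, gamma-synuclein, at 13705, 11818, 14202 and 15481 TPM. Tppp3, a protein that promotes tubulin polymerization, was second at 9829, 8822, 9545 and 9878 TPM, and all of its values lay below all of those of Sncg. Both were steady, Sncg with a ratio of 1.46. Tuba1a, an alpha-tubulin, followed at 6924, 6457, 5366 and 5421 TPM, from exons of which 26.2% overlap another gene. Tmsb4x, which binds actin monomers, had 5363, 4320.3, 4634 and 5794 TPM, and the glycolytic enzyme Aldoa had 4744, 4337, 4309.9 and 4432 TPM. The next genes did not separate, since the ranges of Prph, Aldoa and Th overlapped, and Aldoa would stand at 6902 TPM by the longest transcript.

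The ubiquitin hydrolase Uchl1 had a mean of 3836 ± 159 TPM, the annexin Anxa5 3627 ± 343 TPM and the beta-tubulin Tubb2a 3448 ± 459.7 TPM. The chaperone Hsp90ab1 stood at 3338 ± 309.6 TPM, Actb, beta-actin, at 3275 ± 343 TPM and the stathmin Stmn3 at 3204 ± 217 TPM. Ubb, a polyubiquitin gene, had 3065 ± 299 TPM and Fkbp1b, a partner of calcium release channels, 2852 ± 142 TPM. Sh3bgrl3 and Fxyd2 were the only 2 of the 20 that were not steady. Fxyd2, a regulator of the sodium pump, stood at 2638, 2418, 3515 and 3417 TPM, and by the longest transcript its mean would be 5845 TPM. Snurf at 4172 TPM and Gm49450 at 2726 TPM lie wholly within exons of other genes (Snrpn for the first, Tuba1a and Tuba1b for the second), and reads overlapping several genes were counted in each. Their levels cannot be told from those of the genes they overlap.

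Counts were spread over many genes. From 4.5% to 5.39% of a library's counts fell on its 10 highest genes, and between 882 and 945 genes held 50% of them. Protein-coding genes took 91.0% of the counts but 68.1% of the TPM total. Processed pseudogenes took 3.43% of the counts and 13.4% of the TPM total. Set against protein-coding genes alone, the summed TPM of a list would be 1.47 times higher in the median.

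Among the highest other genes were copies of mitochondrial genes. All 37 genes of the mitochondrial chromosome had 0 counts in all 4 libraries, while 7 pseudogenes on the minus strand of chromosome 1, between 24611535 and 24616197 (GRCm38), held between 0.772% and 1.40% of all counts. Their transcripts in the GENCODE annotation match 7 mitochondrial genes over at least 99.7% of the aligned bases, so the sequences are shown because reads from either source would look alike. Gm10925, 7271, 10802, 12208 and 12230.0 TPM, matches mt-Atp6, a subunit of ATP synthase, without a mismatch over 678 bases. Gm28438 differs from mt-Nd3, a subunit of complex I, by T3C and Gm29216 from mt-Co1, a subunit of cytochrome oxidase, by A1066T, each the only mismatch in the alignment. Positions count from 1 at the 5′ end of the mitochondrial transcript, whose base comes first, and capitals mark the base that differs in these stretches of 61 bases.
Gm10925: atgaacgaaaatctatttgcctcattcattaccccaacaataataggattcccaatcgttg
mt-Atp6: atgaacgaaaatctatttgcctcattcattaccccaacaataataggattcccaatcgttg
Gm28438: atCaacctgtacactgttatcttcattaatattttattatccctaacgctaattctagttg
mt-Nd3: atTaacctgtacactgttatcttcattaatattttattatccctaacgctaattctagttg
Gm29216: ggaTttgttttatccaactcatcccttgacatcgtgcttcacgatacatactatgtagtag
mt-Co1: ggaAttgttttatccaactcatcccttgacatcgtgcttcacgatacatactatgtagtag

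Gm29216 was found at 8614, 8546, 11493 and 12399 TPM and Gm28437, a copy of mt-Co3, at 5907, 10886, 9964 and 9634 TPM. M-WT1 was the lowest library for 6 of the 7 copies, and M-WT2 for Gm29216. The values count reads assigned to chromosome 1, and no level of mitochondrial transcripts can be given from them. The highest of all genes by mean was Gm23935, at 7399, 11184, 33785 and 13714 TPM. It is a stretch of 57 bases on chromosome 16 (11144125 to 11144181) that is annotated as a miRNA gene. Sncg was above it in M-WT1, M-WT2 and F-WT2, and F-WT1 was by far the highest library of Gm23935. Its annotated sequence, printed because Gm24270 on chromosome 9 has the same 57 bases and 2190.0, 2273, 8752 and 3487 TPM, is as follows.
Gm23935: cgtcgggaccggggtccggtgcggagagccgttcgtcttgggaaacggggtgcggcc
Division by so short a length raises the TPM of such a gene above that of a longer gene with as many counts. Gm37376, at 7786, 12248, 4892 and 17387 TPM, lies within Malat1, a long nuclear RNA, which had 731, 1202, 500.4 and 1693 TPM and a ratio of 3.34 between libraries.

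Steady genes were more common at higher levels. Of the protein-coding genes detected, 4.75% were steady at a mean under 1 TPM, 13.7% between 1 and 10, 44.8% between 10 and 100, 70.7% between 100 and 1000 and 74.7% at 1000 TPM and over. The median ratio of highest to lowest CPM fell from 4.38 in the lowest of these classes to 1.31 in the highest. The 10 steadiest genes of at least 50 TPM varied by a coefficient of variation between 1.51% and 2.26%. They were Rnf187, a ubiquitin ligase at 859, 925, 814 and 825 TPM, Cops7a of the COP9 signalosome, the GTPases Arf1 and Rab10, the mitochondrial kinase Pink1, the presynaptic protein Tprgl, the microtubule protein Map4, the RNA helicase Ddx5, the neuritin gene Nrn1 and the phosphatase subunit Ppp2r5d. Arf1, which acts in vesicle budding, stood at 482, 502, 429 and 437 TPM and Nrn1 at 522, 544, 479 and 466 TPM. Each of the 10 differed by at most 1.05 times between its lowest and highest library in CPM.

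**Figure D2:**
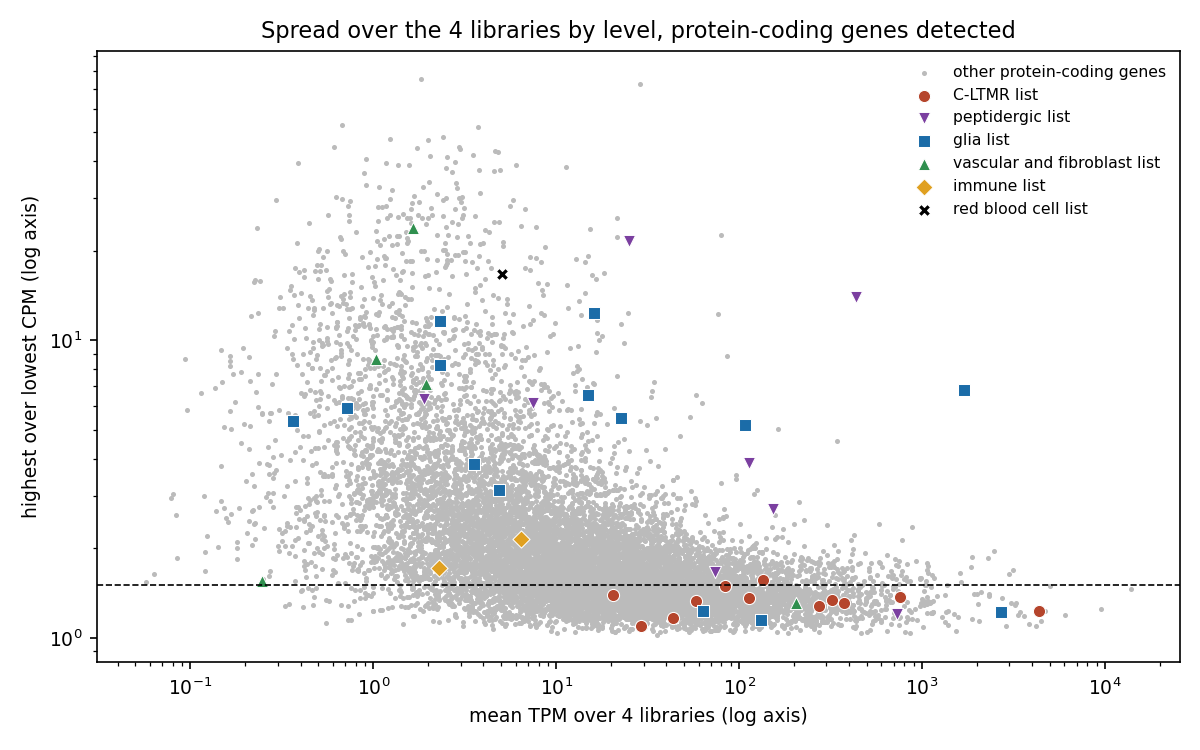
Highest over lowest CPM against mean TPM, both on log axes, for the 12061 protein-coding genes detected, with list members in colour and the 1.5-fold limit as a dashed line. Of the C-LTMR genes 11 lie under the line and Fam19a4 just above it, while most peptidergic and glial genes lie above it.

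Genes that act after Th in catecholamine synthesis were not found. Ddc, the decarboxylase that makes dopamine, Dbh, which makes noradrenaline, and the dopamine and noradrenaline transporters Slc6a3 and Slc6a2 had 0 counts in all 4 libraries, which allows at most 3 counts of the total in each. Gch1, the first enzyme of the pathway to the tetrahydrobiopterin cofactor of Th, was at 0.406, 0.115, 0 and 1.68 TPM. It had 0 counts in F-WT1. The monoamine carriers of vesicles, Slc18a2 at 0.914, 3.1, 0.461 and 1.42 TPM and Slc18a1 at 1.39, 1.34, 0.974 and 1.83 TPM, were low. Genes that recycle the cofactor were present, with Pcbd1 at 539, 533, 609 and 622 TPM and Qdpr at 192, 175, 138 and 213 TPM. Of the 16 genes of this list, 9 were detected, a share near that of all protein-coding genes, and 4 were absent. Of the 9, 6 were steady, against 49.8% at the same levels.

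Slc17a6, the vesicular glutamate transporter VGLUT2, was the highest of 6 vesicular transmitter transporters at 83.9, 97.7, 72.9 and 77.7 TPM. Its lowest value lay above the highest of Slc17a8, 25.1 TPM. Slc17a7 (VGLUT1) had 1.48, 1.09, 0.0343 and 5.63 TPM, while the GABA and acetylcholine carriers Slc32a1 and Slc18a3 and the nucleotide carrier Slc17a9 had 0 counts throughout. Genes of the release machinery were found throughout, as all 28 genes of that list were detected and 20 were steady, against 47.5% of genes at the same levels. Cplx1, a clamp of the fusion complex, led at 1291, 1474, 1256 and 1128 TPM. The vesicle GTPase Rab3a stood at 799, 628, 657 and 646 TPM and the SNARE Vamp2 at 444, 564, 465 and 461 TPM. Syt2 and Sv2b, a calcium sensor and a vesicle glycoprotein, were the lowest members at 0.734 and 0.534 TPM.

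Peptide genes were mixed in their behaviour. Calcb, which encodes beta-CGRP, was steady at 688, 749, 705 and 776 TPM. Calca, which encodes calcitonin and alpha-CGRP, stood at 83.1, 127, 437 and 1087 TPM, so that F-WT2 was 14.004 times M-WT1 in CPM and only F-WT2 was above Calcb. Tac1, the substance P precursor, had 90.6, 122, 169 and 229.9 TPM. Gal, the galanin precursor, split the libraries into M-WT1 and F-WT2 at 161 and 187 TPM and the other two at 53.6 TPM. Nmb, neuromedin B, had 72.8, 73.5, 198 and 137 TPM, and Vgf, a secretory granule protein, was steady at 104, 120.1, 98.002 and 115 TPM. Penk, the enkephalin precursor, was at 22.4, 31.7, 0.0453 and 0.333 TPM, a spread whose cause was not tested. Of 25 peptide and granin genes 13, or 52.0%, were detected, a share near the 54.9% of protein-coding genes. Calcb and Vgf were the 2 that were steady, against 51.5% at the same levels, while Vip, Tac2, Ucn and Grp had 0 counts. Among the TAFA genes Fam19a4 made up 89.4% of the summed level, ahead of Fam19a5 at 9.43 ± 2.71 TPM.

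Among mechanosensory candidates, Tmem63b, of a family of stretch-gated channels, was above Piezo2 at 194, 199.9, 132 and 131 TPM, and Tmem120a stood at 92.5, 92.3, 67.9 and 90.97 TPM. The ranges of Tmem63b and Piezo2 did not overlap. Piezo1, the relative of Piezo2 in vessels and blood cells, had 0.853, 1.28, 0.637 and 0.377 TPM, Stoml3, a stomatin-like protein of touch neurons, counts in 1 library only, and Tmc1, of the hair cell channel, none. Of the 21 TRP channels 11 were detected and 4 absent, against 54.9% and 30.0% of protein-coding genes, so that the detected share is near the background. Trpv2 led at 99.2, 120.0, 87.8 and 82.96 TPM. Trpa1, the irritant receptor, had 6.07, 7.2, 10.4 and 6.87 TPM, Trpv1, the capsaicin receptor, 0, 5.27, 6.16 and 26.9 TPM, and Trpm8, the menthol receptor, at most 0.129 TPM. Trpv1 was without a count in M-WT1. Asic2, an acid-sensing channel subunit, stood at 107, 143, 79.1 and 100.1 TPM, above Asic1 at 22.1 ± 6.8 TPM in each library, and Asic3, the subunit of muscle and visceral afferents, at 0.462, 0, 1.19 and 10.4 TPM.

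The sodium channel list was among the most complete, with 14 of 15 genes detected, against 54.9% of protein-coding genes, and Scn4a between the classes. The 3 pore subunits of small sensory neurons were all found. Scn10a (Nav1.8) stood at 97.8, 132, 113 and 84.2 TPM, Scn9a (Nav1.7) at 91.7, 99.9, 87.5 and 72.4 TPM and Scn11a (Nav1.9) at 79.3, 82.3, 101 and 55.7 TPM, with overlapping ranges. Scn8a and Scn1a, the pore subunits of myelinated fibres, were near 9.74 and 7.94 TPM. For calcium channels, Cacna1h was the highest of the 10 pore genes, ahead of the N-type Cacna1b at 17.7 ± 4.98 TPM, the T-type Cacna1i at 16.2 ± 2.6 TPM and the P/Q-type Cacna1a at 10.1 ± 0.693 TPM. The remaining T-type gene, Cacna1g, had 0 counts. Cacnb3, an auxiliary beta subunit, stood at 432, 439, 328 and 336 TPM and made up 80.4% of the summed level of its list.

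Of 22 genes of Kv1 to Kv4 channels and their partners 20 were detected, against 54.9% of protein-coding genes. Of the 20, 10 were steady, against 39.9% at the same levels. Kcnip2, a cytoplasmic partner of Kv4 channels, led at 449.6, 421, 361 and 311 TPM, and the pore subunit Kcnd1 had 246, 286, 215 and 187 TPM. Kcnip4 and Kcnip3 stood at 138 ± 15.3 and 131 ± 19.6 TPM, and the pore subunit Kcnd3 was among them. Dpp6, a transmembrane partner, had 80.4 ± 13.3 TPM. By mean level these were the highest of the list, but the Kv4 pore gene Kcnd2 had 0.311, 0.435, 1.02 and 0.383 TPM. Hcn2 at 78.1, 87.3, 70.9 and 82.98 TPM and Hcn3 at 55.4, 76.5, 60.4 and 41.3 TPM led the pacemaker channels, and the Kv7 gene Kcnq3 stood at 0.0804 TPM. Among two-pore channels Kcnk1 had 60.6, 69.4, 47.1 and 42.6 TPM and Kcnk13 35.9, 58.4, 17.1 and 20.05 TPM, while Kcnk2 and Kcnk4, known for their response to stretch, were at 0.669 and 1.21 TPM.

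Of the ionotropic glutamate receptors, the kainate subunit Grik1 was the highest. It had 134, 149.9, 114 and 101 TPM, and the high-affinity subunits Grik4 and Grik5 followed at 35.6 ± 18.1 and 26.4 ± 5.91 TPM. The AMPA subunits Gria1 to Gria4 stood at 4.2, 0.918, 1.95 and 2.19 TPM. Grin1, the obligate NMDA subunit, had 18.1, 24.003, 18.1 and 19.6 TPM, or a mean of 37.35 TPM by the longest transcript. The levels of Grik4 and Grik5 by that length are not given here, so the genes are not ranked by it. Its partners Grin2b and Grin2c had 0 counts and Grin2a at most 0.0125 TPM. Both subunits of the GABA-B receptor, Gabbr2 and Gabbr1, were found at 106, 113, 88.5 and 62.6 and 80.7, 84.7, 84.3 and 68.3 TPM. The GABA-A subunit Gabra2 stood at 26.5 ± 5.52 TPM, and 7 of the 21 genes of the list were absent, a share near the 30.0% of all protein-coding genes.

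P2ry1, an ADP receptor, led the purinergic genes at 155, 188, 168 and 124 TPM, and P2rx3, the ATP-gated channel of nociceptors, varied at 35.7, 59.95, 7.9 and 30.2 TPM. Opioid receptors were scarce. Oprd1 and Oprk1 had 0 counts in all libraries, Oprm1 at most 0.766 TPM and the nociceptin receptor Oprl1 4.07, 11.9, 1.89 and 11.4 TPM. Beside Ret and Gfra2, the growth factor receptors included Gfra4 at 94.1, 86.5, 92.5 and 112 TPM, the cytokine receptor Lifr at 64.3 ± 8.52 TPM and Ngfr at 45.4 ± 5.46 TPM. Gfra3, the artemin co-receptor, varied at 16.99, 2.09, 18.3 and 48.3 TPM. Met, the receptor of hepatocyte growth factor, had 0 counts. Of 10 steroid receptor genes, 4 were detected, against 54.9% of protein-coding genes. Esrra led them at 7.95 ± 3.11 TPM, and Esr2 had 0 counts.

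Sensory lineage transcription factors held some of the higher levels among the lists of regulators. Isl2, a LIM homeodomain factor, led at 736, 716, 621 and 619 TPM. Prdm12, a factor of pain-sensing neurons, had 330.4, 344, 322 and 282 TPM and Prrxl1, also called Drgx, 346, 341, 311 and 254 TPM. By mean level Bhlha9 came next among the 31 genes. Tlx2 and Tlx3 stood at 241 ± 31.2 and 231 ± 30.2 TPM, Klf7 at 224 ± 26.8 TPM, Pou4f1 at 161 ± 16.7 TPM and Isl1 at 83.9, 83.4, 86.5 and 86.2 TPM. Of the list 22 were detected and 12 steady, against 43.1% at the same levels. Factors of other branches were near the limit, with Runx3 of proprioceptors at 0.111 TPM and Maf of myelinated touch receptors at 0.391 TPM. Neurog1, an early neurogenic factor and not one of another branch, had 0 counts. The E-proteins, which pair with basic helix-loop-helix factors, stood below Bhlha9, at 8.14, 12.4, 6.02 and 11.7 TPM for Tcf3, 0.868 for Tcf4 and 0.787 TPM for Tcf12. Id4 at 139.9, 176, 140.1 and 120.2 TPM and Id2 at 96.6 ± 14.1 TPM, of the proteins that sequester E-proteins, were above them in every library.

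Hox genes, which mark the position of a cell along the body axis, had most of their summed level in a middle window. Of 39 genes 24, or 61.5%, were detected and 9 absent, against 54.9% and 30.0% of protein-coding genes. Hoxb5 was the highest at 77.1, 63.6, 86.8 and 68.6 TPM, followed by Hoxa7 at 61.8, 47.9, 60.7 and 56.3 TPM. Hoxd8 had 23.4, 24.3, 34.3 and 27.7 TPM. Paralogue groups 4 to 8 held 81.2% of the summed Hox level at 244, 204, 267 and 237 TPM, with 14 of 15 genes detected. Groups 9 to 10 held 11.7%, with 5 of 7 genes detected, and groups 1 to 3 held 7.01%, with 5 of 8 detected. None of the 9 genes of groups 11 to 13 was detected and 8 were absent, the exception being Hoxd11 at 1.31, 0.018, 0.695 and 0 TPM. By cluster, the sums were 118 TPM for B, 107 for A, 52.9 for D and 14.8 TPM for C. Hoxd1, at 1.8, 6.85, 13.4 and 10.7 TPM, had the highest mean of groups 1 to 3, though Hoxb2 and Hoxd3 were above it in M-WT1. The labels do not say from which body level the cells came.

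**Figure D3:**
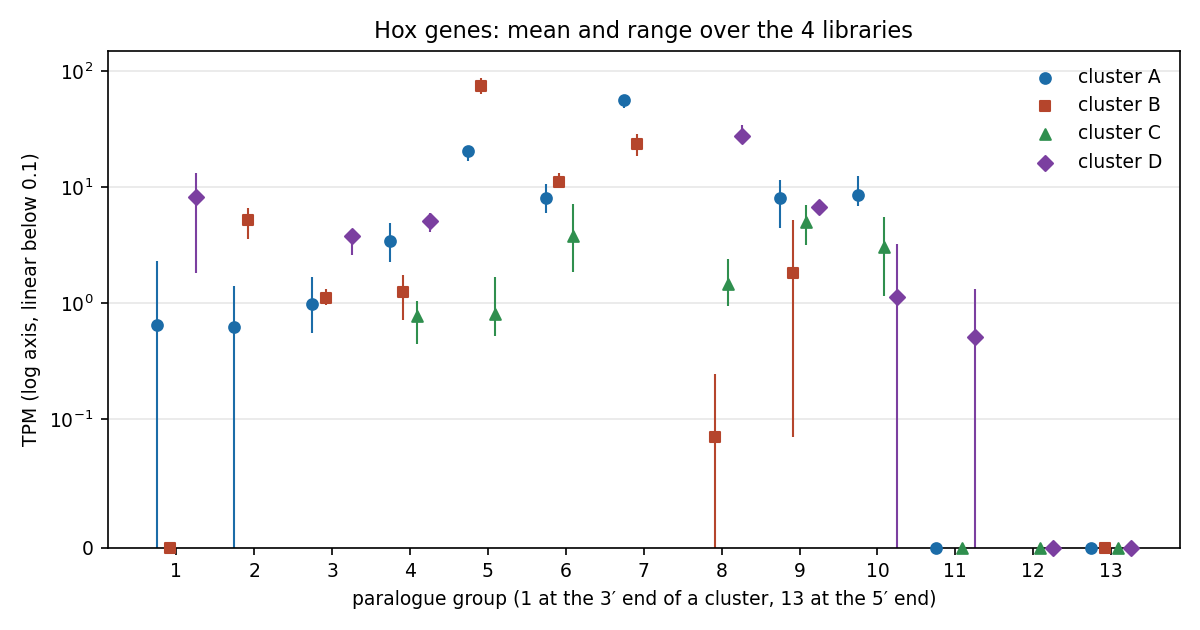
TPM of each of 39 Hox genes on a log axis (linear below 0.1) by paralogue group, with the mean as a point, the range over the 4 libraries as a line and the cluster as colour. The highest points lie in groups 5 to 8, and all genes of groups 12 and 13 are at 0.

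Families were grouped by the start of the gene symbol. Genes of the alpha-, beta- and gamma-tubulins, with the gamma-tubulin complex genes, had the largest summed level among the families measured, 19316, 18001, 15795 and 15757 TPM, of which Tuba1a was 35.1%. Nduf genes, which encode subunits and assembly factors of respiratory complex I but also include Ndufa4 of cytochrome oxidase, followed at 11202, 10048, 13006 and 13632 TPM, with 45 of 46 genes detected. Cytochrome oxidase genes with Cox symbols stood at 9497 ± 1817 TPM. The ranges of these 2 overlapped. The proteasome stood at 6693 ± 466 TPM, neuronal intermediate filaments at 6178 ± 777 TPM and stathmins, which regulate microtubules, at 4729.8 ± 339 TPM. Cytosolic ribosomal proteins summed to 4551 ± 632 TPM over 83 genes. Many of these have processed pseudogenes of near-identical sequence, and the aligned files are named as uniquely aligned, so this sum is uncertain.

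All 6 of the 14-3-3 adaptor genes were steady, where 70.7% of protein-coding genes between 100 and 1000 TPM and 74.7% of those above were, and they were led by Ywhah at 1674, 1687, 1281 and 1316 TPM. Among the RGS proteins, which switch off G protein signals, Rgs4 had 1349, 1818, 1206 and 1084 TPM and Rgs10 1068, 1054, 1232 and 1258 TPM, beside 3114 TPM for all genes with Rgs symbols. Clustered protocadherins, cell surface proteins that give neurons an identity, were detected for 43 of 55 genes. Of the 30 that were steady 21 belong to the gamma cluster, 8 to the alpha cluster and 1, Pcdhb4, to the beta cluster. Genes of the gamma and of the alpha cluster share exons and so share counts, and they are not independent members. The whole set is therefore not read against the 44.8% of genes steady between 10 and 100 TPM. Of the Mrgpr receptors 3 of 20 were detected, and Mrgpre at 55.6, 72.2, 40.2 and 52.6 TPM made up 80.9% of their summed level. Mrgprd, of nonpeptidergic nociceptors, stood at 2.49, 1.0, 8.73 and 0.768 TPM and Mrgpra3, of itch neurons, at 0.0576, 1.47, 12.8 and 0.105 TPM. F-WT1 was the highest library for both.

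Whole families of receptors of other senses were missing. Of 1135 olfactory receptor genes 1112 were absent, of 333 vomeronasal genes 312, and all 35 bitter taste and 15 trace amine receptors had 0 counts, against 30.0% of protein-coding genes absent overall. Olfr482 at 3.17, 3.84, 2.88 and 3.39 TPM was the highest of the olfactory receptors by mean, though Olfr700 was above it in F-WT2. Of 42 beta-defensins 39 were absent, but Defb42 stood at 41.7, 35.3, 43.9 and 51.3 TPM and made up 98.2% of the family's sum. Keratins were absent for 44 of 53 genes. Krt25, a keratin of the inner hair root sheath, was detected at 30.04, 21.7, 17.5 and 19.995 TPM.

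**Figure D4:**
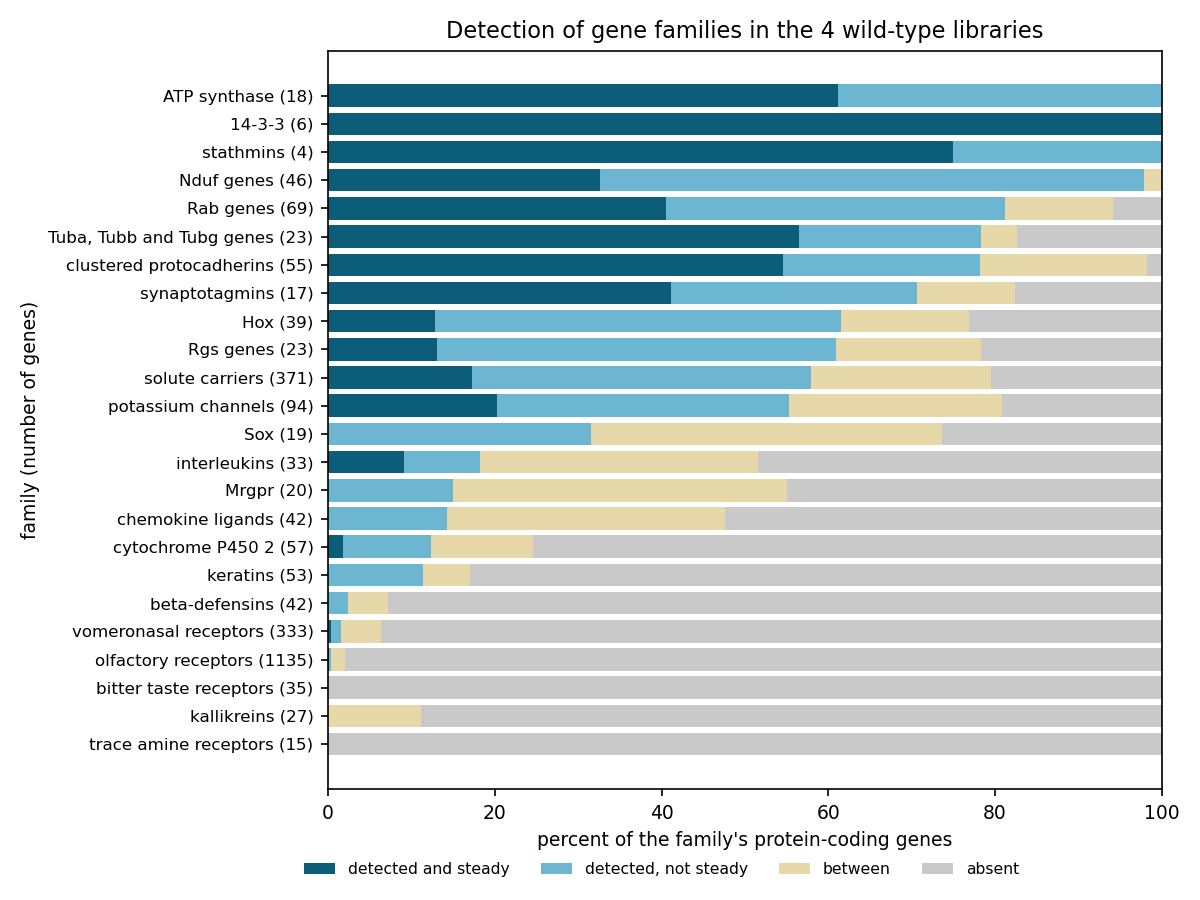
Percent of the protein-coding genes of 24 families, grouped by gene symbol, that were detected and steady, detected but not steady, between the classes or absent, with the number of genes in brackets. The 14-3-3 genes were all steady, and olfactory, vomeronasal, taste and trace amine receptors were nearly all absent.

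Genes of other cells were looked for in lists of their markers, which had been chosen with earlier results known. Of 16 glial and Schwann cell genes 14 were detected, against 54.9% of protein-coding genes, and 3 were steady, against 38.1% at the same levels. The steady 3 were Pmp22, a myelin protein that many cells express, at 3071, 2809.5, 2322 and 2546 TPM, the myelin basic protein gene Mbp at 132, 149.7, 130.0 and 118 TPM and the glutamine synthetase gene Glul at 69.8, 58.9, 63.6 and 60.3 TPM. The other 13 summed to 2373, 444, 2034 and 2649 TPM, with M-WT2 the lowest. In these, Apoe, an apolipoprotein of satellite glia, was at 2147, 389.9, 1873 and 2389.8 TPM and Fabp7, a fatty acid binding protein of satellite glia, at 136, 32.99, 106 and 154 TPM. Sox10, the factor that defines these glia, had 4.48, 1.24, 4.22 and 4.19 TPM, and Mag, a myelin glycoprotein, at most 0.00835 TPM. M-WT2 was the lowest library for 11 of the 15 genes with at least 10 counts in a library, a share not set against all genes. The part of glial RNA in the values of other genes was not tested.

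Several blood and vessel markers were found mainly in 1 library. Of the 16 immune genes 2 were detected in all libraries, Csf1r and Cd79a, and 8 had 0 counts in 1 library and at least 20 in another, which was so for 8.5% of protein-coding genes. S100a9 and S100a8, of neutrophils, stood at 77.3 and 41.6 TPM in M-WT2 and had 0 counts in the other 3 libraries. All 5 red blood cell genes were highest in M-WT2 too, where they summed to 64.1 TPM, against at most 5.41 TPM elsewhere. Cd74, of antigen-presenting cells, was found in M-WT1 alone at 10.1 TPM, as was the complement gene C1qb at 7.03 TPM. Ptprc, the pan-leukocyte antigen, was at most 0.0163 TPM in any library, and Itgam and Cd3e had 0 counts. Of the 13 immune genes with at least 10 counts in a library, 4 were highest in M-WT1, 5 in M-WT2, 4 in F-WT1 and 0 in F-WT2.

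Of 14 vascular and fibroblast genes 5 were detected in all libraries, against 54.9% of protein-coding genes. Rgs5, known from pericytes, was the steady one at 175, 237, 203 and 202 TPM, and it made up 93.1% of the list's sum. The other 13 summed to 4.74, 3.11, 13.02 and 40.1 TPM. By library, 7 of the 14 genes were highest in F-WT2, 4 in M-WT2, 2 in F-WT1 and 1 in M-WT1. Cldn5, a tight junction protein of endothelium, reached 24.4 TPM in F-WT2 and at most 0.0536 TPM elsewhere. The pericyte receptor Pdgfrb had 1.12, 0.27, 2.07 and 0.652 TPM and did not follow Rgs5 in level.

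Genes of other sensory neuron classes differed in how even they were. All 10 peptidergic genes were highest in F-WT2, with no share over all genes to set beside this. Without Calcb the list summed to 408, 378, 775 and 1719 TPM. Gpx3, a secreted peroxidase in that list, had 3.71, 3.88, 18.2 and 74.7 TPM. Of 8 detected peptidergic genes 1 was steady, against 49.9% at the same levels. Among 9 genes of myelinated neurons, Necab2, a calcium-binding protein, was steady at 128, 125, 151 and 149.6 TPM. Nefh, the heavy neurofilament, had 61.6, 43.8, 44.3 and 32.998 TPM, and Pvalb, of proprioceptors, 6.13, 2.41, 0.925 and 35.8 TPM. Of the 5 detected genes of myelinated neurons 2 were steady, against 43.7% at the same levels. Of 11 nonpeptidergic and itch genes 5 were detected and 2 of these were steady, against 26.1% at the same levels. They were led by the prostaglandin receptor Ptgdr at 38.3, 40.8, 26.7 and 13.2 TPM and the semaphorin receptor Plxnc1 at 23.9, 20.8, 20.7 and 17.2 TPM. The cold receptor list, Trpm8 and Foxp2, had no gene detected.

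**Figure D5:**
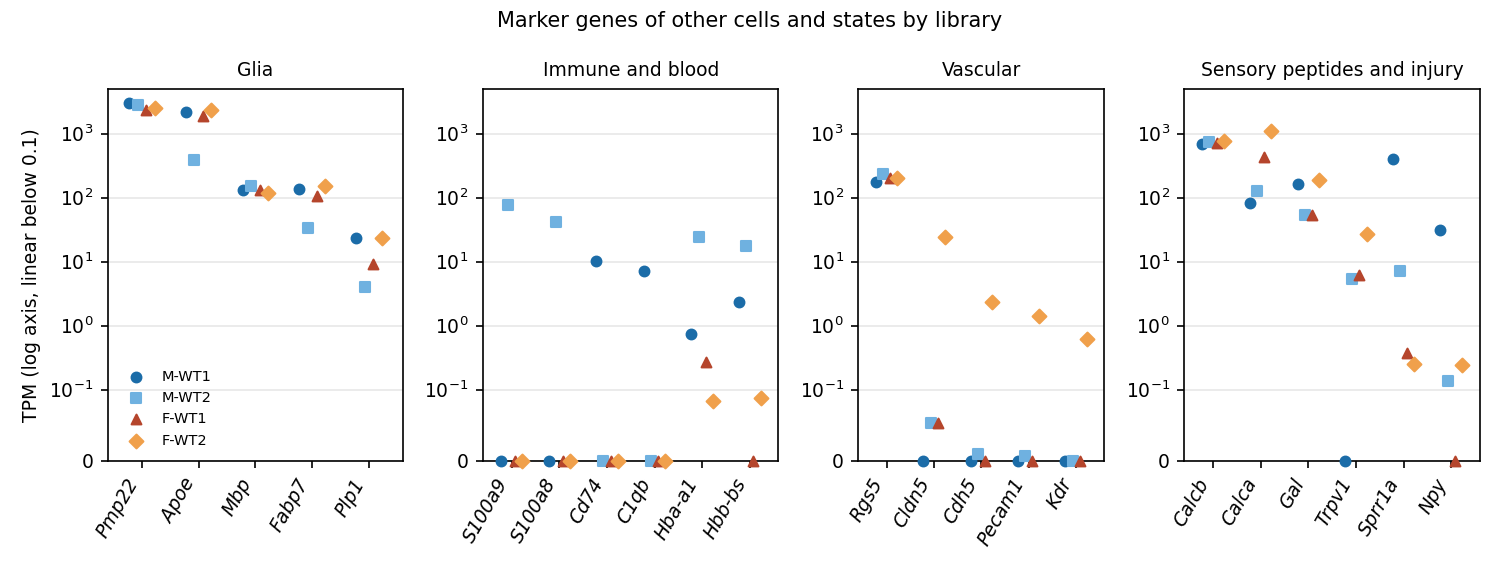
TPM per library on a log axis (linear below 0.1) for marker genes of glia, immune and red blood cells, vessels, and of sensory peptides and nerve injury. Pmp22, Mbp, Rgs5 and Calcb have 4 points close together, while the points of the other genes are farther apart.

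None of the 16 immediate early genes detected was steady, against 35.5% at the same levels. Fos stood at 292, 220.2, 246 and 389 TPM, Junb at 206, 128, 186 and 277 TPM and Nr4a1 at 33.7, 13.7, 19.1 and 44.3 TPM. F-WT2 was the highest library for 15 of the 18 members with at least 10 counts in a library, and M-WT2 the lowest for 12. How often each library was highest or lowest over all genes was not counted, here or for the injury genes that follow. Genes known to rise after nerve injury were highest in M-WT1 for 10 of 12. Among these were Atf3, an injury-induced factor, at 226, 83.8, 66.2 and 125 TPM and Gap43, a growth cone protein, at 83.04, 15.7, 41.8 and 75.2 TPM. Sprr1a, a protein of growing axons, stood at 396, 7.11, 0.368 and 0.253 TPM. Hspb1, a small heat shock protein, was high in all libraries at 679, 590.5, 833 and 633 TPM. None of these 12 was steady among the 9 detected, against 43.0% at the same levels.

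Over all genes, 6.97% had 0 counts in 1 library and at least 20 in another, and 18.1% of the genes with at least 20 counts in a library did. Of these 3874 genes, 1610 were at 0 in 1 library, 1272 in 2 and 992 in 3. F-WT1, the library with the fewest counts, was at 0 for 2283 of them, M-WT1 for 2075, F-WT2 for 1709 and M-WT2 for 1063. The highest library was F-WT2 for 1300 of them, M-WT2 for 1012, M-WT1 for 866 and F-WT1 for 696. At a mean of at least 10 TPM the 10 most uneven protein-coding genes included Nts, the neurotensin precursor, at 96.8, 0.0609, 0.0593 and 0 TPM, Ly6c1 of endothelium at 0, 0.0453, 0 and 49.6 TPM and Ngp, a neutrophil granule protein, at 0, 47.7, 0.0606 and 0 TPM. Igfbp7, a secreted protein of vessels, had 2.75, 1.66, 1.62 and 108 TPM. Counts include PCR copies, since no molecular identifiers are described, and limits from a count of 0 cover counting error only.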

How the data were processed

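RNA of sorted GFP-positive cells was turned into cDNA with a SMART-Seq v4 kit and tagmented with Nextera XT, per the labels' protocols. The authors' deposited values are whole-number counts per gene over exons, made with featureCounts 1.6.1 against Ensembl release 97 of GRCm38, per the file headers. Reads overlapping several genes were counted for each, no strand option was set, and the aligned files were named as unique, per the file headers. Antisense and overlapping genes therefore cannot be told apart. The submitters' processing notes name Subread 1.6.4, bcl2fastq 2.17.1.14, DESeq2 1.14.1 and build mm10. Of the aligner, name and settings are not given in the sources used. The authors' tables of differential expression were not used, and the bhlha9 KO libraries were not analysed here.

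From the counts of the 4 wild-type libraries, CPM was computed on TMM-scaled library sizes with edgeR 4.0.16 (R 4.3.3) and TPM with the merged exon length of each gene. Both normalizations assume that most RNA does not differ between libraries. The classes (at least 10 counts, at most 3 counts, a ratio of at most 1.5, and 0 against at least 20 counts) were computed in Python 3.11.15. Only the steady class and TPM were tried on simulated data. The simulated spread was below the 38.7% of these libraries, so the trial cannot say how well the classes work here. No test between groups was run. Alternatives were another count minimum, ratio, normalization (plain totals, DESeq2 1.42.0), gene length or TPM total, and leaving out each library. Gene biotypes and sequences came from GENCODE M21, whose coordinates were identical for 99.6% of the matched genes.

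Named genes were the C-LTMR genes, the 20 highest protein-coding and 5 highest other genes, up to 5 highest and up to 5 absent members of each of 34 lists, the highest member of each of 45 families, the 10 steadiest genes of at least 50 TPM and the 10 most uneven of at least 10 TPM. Some members of the lists are not reported here. Other genes named were chosen after their values were seen. The members and lists were chosen with earlier results of these data known.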

Additional observations from a re-analysis of the deposited data

Results flagged for a closer look

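In each of 303 sets of 4 values (the summed TPM of lists and families and the TPM of named genes), the gap between the highest or lowest library and its nearest neighbour was divided by the range of the 4. It exceeded Dixon's 95% critical value for 4 samples in 30 sets, or 9.9%, where chance flags about 1 in 20, but the sets share genes and libraries, and they include genes named for being uneven or after their values were seen, so the share is not read against chance. M-WT2 was the library apart in 14 of these, 12 of them on the high side.

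Blood genes in M-WT2 were the clearest group. The quotient was 0.933 for the summed red blood cell list, 0.973 for Hba-a1, 0.906 for Hba-a2, 0.869 for Hbb-bs and 0.962 for Hbb-bt, the globin genes, 1.0 for S100a9 and for S100a8, and 0.999 for Ngp. The same library was highest for Gfra2 (0.848), the RGS family (0.858), the major urinary proteins and their member Mup3 (both 1.0), and lowest for Stmn3 (0.872) and the stathmin family (0.8294). The quotient is 1.0 by definition where only the highest library has counts, as for S100a9, S100a8 and Mup3. Mup3 made up the whole urinary protein sum, 0.498 TPM in M-WT2 and 0 elsewhere, so these are the same low value. For Gfra2 the TPM values of all 4 libraries lay within a 1.5-fold ratio.

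F-WT2 was the highest library for the vessel genes Cldn5 (0.998), Ly6c1 (0.999) and Igfbp7 (0.989), and for Pdgfra (0.83), a receptor of fibroblasts. Of the 14 genes of the vascular and fibroblast list, only 7 were highest in that library. F-WT2 was also highest for the sensory genes Pvalb (0.851), Asic3 (0.885) and Fam19a2 (0.941). M-WT1 stood apart for Sprr1a (0.983), Nts (0.999), Cd74 (1.0), the potassium channel gene Kcnq1 (0.878) and Rab3a (0.834). F-WT1 was highest for Mrgpra3 (0.889) and for Dcn (0.832), a matrix protein gene, and lowest for Tmem120a (0.938) and the proteasome gene Psmc5 (0.891). The cause of these differences was not tested.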

How the results depend on the processing

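No paired analysis was possible because no result comes from a test between groups. The number of steady genes, 4940, fell to 1389 under the stricter ratio limit and rose to 9841 at a ratio of at most 2, and of the 12 C-LTMR genes 3 and 12 were then steady. The number of genes at 0 in 1 library and high in another fell from 3874 to 1100 when 100 counts were required. The 10 most abundant genes held 5.04% of the counts but 9.999% of the TPM. The summed C-LTMR level rose from 6553 to 9616 TPM over a total of protein-coding genes only. Without 1 library the counts of steady genes ran from 6589 to 7317 and those of C-LTMR genes from 11 to 12, as a ratio over fewer libraries can only be smaller. Other counts stayed within 1.5 times, with 18724 genes detected at a minimum of 1 count and 12634 at 100, 26853 absent at 0 counts, and 4970 steady genes with plain totals and 4946 with DESeq2 size factors, of which 4844 and 4870 were shared with the 4940. The length of the longest transcript moved 82 of 270 genes by over 1 SD and 14 by over 1.5 times, among them Runx1, Aldoa, Grik1 (124.5 to 188.6 TPM), Grin1 (19.98 to 37.35 TPM), Map4 and Fxyd2 (2997 to 5845 TPM). Leaving out 1 library moved the mean of 45 of the 270 by over 1.5 times, and without M-WT2 the summed immune list fell from 48.6 to 17.1 TPM and the red blood cell list from 18.3 to 3.02 TPM. Depth set the lower limit, since 3 counts corresponded to between 0.0476 and 0.0518 CPM.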
